A study of Rattus norvegicus with 20 samples.

Results

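The miR-181 family was followed in the kidneys of rats given aristolochic acid I (AAI) and of rats given vehicle. Its members were chosen by name: the 4 array entries for the guide (5p) strands rno-miR-181a-5p, rno-miR-181b-5p, rno-miR-181c-5p and rno-miR-181d-5p, of 719 rat miRNAs on the array. No level or change entered the naming rule, but the family was selected with the levels and changes on these same 20 arrays already known. The values below, adjusted p-values included, are therefore a description of these arrays and not independent evidence. AAI is a plant nitrophenanthrene acid that injures the proximal tubule. Male Wistar rats of 80 to 100 g received 40 mg/kg AAI by intraperitoneal injection, and 5 kidneys were profiled on each of day 2, day 4 and day 6. The vehicle group comprised 5 kidneys collected on day 6 from rats given PEG400 in water on the same schedule. Kidneys of day 2 and day 4 therefore had no vehicle kidneys of their own day. The labels do not say that each kidney came from a separate rat. Total RNA of whole kidney was hybridised to single-colour Agilent miRNA arrays, 1 array per kidney.

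miRNAs are short RNAs that guide a silencing complex to messenger RNAs, mainly through the seed, the bases 2 to 8 counted from the 5′ end. The miR-181 guide strands share 1 seed and are made from 3 clusters of paired hairpins, so they can bind many of the same target sites while being transcribed from separate genes. The family is best known from lymphocytes, where miR-181a tunes antigen receptor signalling, and from the vessel wall, where miR-181b dampens NF-kappaB signalling.

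The mature sequences are shown because the members' identity, and how nearly alike they are, bears on every value below. They are those of RefSeq (GRCr8), with the seed in capitals.
miR-181a-5p: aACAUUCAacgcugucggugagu
miR-181b-5p: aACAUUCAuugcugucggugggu
miR-181c-5p: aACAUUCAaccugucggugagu
miR-181d-5p: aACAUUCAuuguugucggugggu
The capital seed is the same in all 4, and among 693 rat mature names in the RefSeq table it occurred in these 4 and in 0 others. Outside the seed, miR-181b-5p and miR-181d-5p differed by 1 substitution, C12U, with positions counted from 1 at the 5′ end. miR-181a-5p differed from miR-181b-5p by A9U, C10U and A21G. Between miR-181a-5p and miR-181d-5p there were 4 substitutions, A9U, C10U, C12U and A21G. miR-181c-5p lacked 1 base of miR-181a-5p, and its 22 bases were otherwise identical. With members this alike, part of the signal at the probes of one may come from another, and this was not tested.

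The clusters pair unlike sequences. On GRCr8, miR-181a-5p lies at chr13:52037081-52037103 and chr3:43025601-43025623, and miR-181b-5p lies beside each copy, at chr13:52037263-52037285 and chr3:43026680-43026702. miR-181c-5p lies at chr19:40888314-40888335 and miR-181d-5p at chr19:40888484-40888506. All of them are on the plus strand. An array cannot tell the chromosome 3 copy of miR-181a-5p or miR-181b-5p from the chromosome 13 copy, because the mature strands are identical.

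Between 250 and 328 of the 719 miRNAs were detected per array, and the 262 miRNAs found on every array of 1 group or more were tested. Day 4 array 2 stood apart, with the most miRNAs detected and the lowest level of all 20 arrays for miR-181c-5p and miR-181d-5p. Several values that rest on it are given with and without it. Correlations with miRNAs outside the family are given only with it. Day 6 array 2 was the dimmest array, with the fewest miRNAs detected; without it the same 2 members passed against vehicle on day 6, and the same 3 against day 2. The arrays came from 3 slides that followed the groups closely: slide 3 held 4 vehicle arrays, slide 2 held vehicle array 5, all day 2 arrays and day 4 arrays 1 and 2, and slide 1 held day 4 arrays 3 to 5 and all day 6 arrays. No slide held both vehicle and day 6, or both day 2 and day 6. The mean 75th percentile signal used to scale the arrays was 367 intensity units in vehicle, 452 on day 2, 472 on day 4 and 480 on day 6. Levels are log2 signals relative to that percentile, and p-values measure only the spread between these arrays. Cell type lists of miRNAs were measured on the same arrays. The defining leukocyte miR-223-3p and miR-150-5p, the endothelial miR-126a-3p and the erythrocyte miR-451-5p were detected on all 20 arrays, beside the kidney tubule miR-192-5p, miR-194-5p and miR-204-5p, so the tissue held several cell types in every group. In whole kidney, fewer cells of a type and less RNA per cell cannot be told apart.

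All 4 guide strands were detected on 20 of 20 arrays. miR-181a-5p gave the highest probe signal, between 473 and 1061 intensity units per array, but probes differ in affinity and the members' levels were not ranked against each other. Signals ran from 77.9 to 156 units for miR-181b-5p, from 72.1 to 190 for miR-181c-5p and from 61.5 to 147 for miR-181d-5p. Each member was read by 2 probes of 10 spots, and the median standard error over spots was 0.01 to 0.02 log2. The spread between arrays of a group was larger, with a pooled SD of 0.08 log2 for miR-181a-5p, 0.13 for miR-181b-5p, 0.19 for miR-181c-5p and 0.15 for miR-181d-5p. Spot noise was therefore small beside the difference between kidneys.

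**Figure D1:**
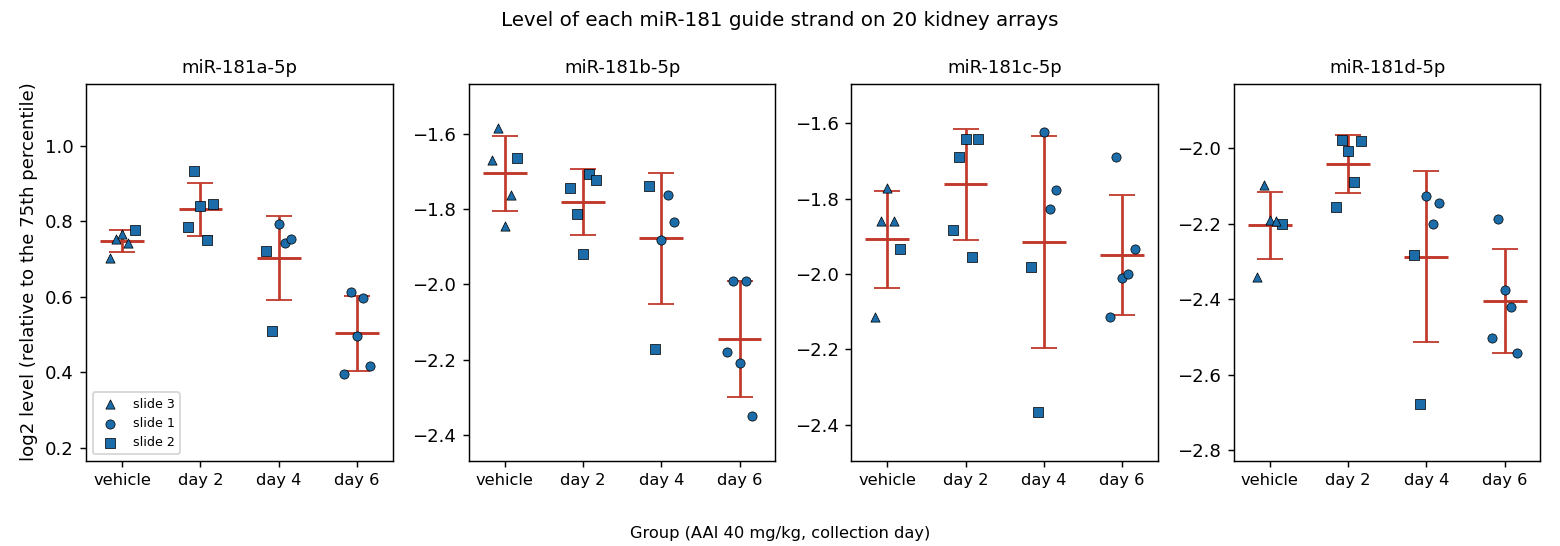
Level of each miR-181 guide strand on each of the 20 arrays (log2 relative to the array's 75th percentile; all panels span the same log2 range) in vehicle and on AAI days 2, 4 and 6, with points marked by slide and bars for the group mean and SD of 5 arrays. The day 6 points of miR-181a-5p and miR-181b-5p all lie below the vehicle points, whereas those of miR-181c-5p lie among them.

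By day 6 the 2 members that share the chromosome 3 and chromosome 13 clusters were lower than in vehicle kidneys. miR-181b-5p fell 1.35-fold (95% interval 1.19 to 1.54) and miR-181a-5p fell 1.18-fold (1.08 to 1.303). For miR-181c-5p the log2 difference was -0.04 and for miR-181d-5p it was -0.20, and neither passed the test. Thus 2 of 4 members passed, both downward, where 26% of the 262 tested miRNAs passed in either direction and 18.7% passed downward. The groups did not overlap for the same 2 members, against 19.1% of tested miRNAs that were lower without overlap. The median change of the 4 members was -0.22 log2, and that of all tested miRNAs was -0.11.

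miR-181b-5p had levels of -1.67, -1.59, -1.85, -1.76 and -1.66 log2 in the 5 vehicle kidneys and of -2.18, -1.99, -2.21, -1.99 and -2.35 on day 6. Every day 6 kidney lay below the lowest vehicle kidney, and day 6 array 5 was the lowest of all 20. The difference was -0.44 ± 0.09 log2 (SE), with an adjusted p of 0.00196 in limma, Benjamini-Hochberg over 262 miRNAs. Both of its probes moved the same way without overlap, by -0.39 and -0.48 log2.

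miR-181a-5p was at 0.70, 0.75, 0.77, 0.74 and 0.78 log2 in vehicle and at 0.40, 0.61, 0.50, 0.60 and 0.42 on day 6. The vehicle kidneys were close together, all day 6 kidneys were lower, and arrays 1 and 5 were the lowest. The difference was -0.24 ± 0.07 log2 with an adjusted p of 0.00870 in limma. Its 2 probes differed by -0.23 and -0.25, each without overlap.

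miR-181d-5p was at -2.34, -2.10, -2.19, -2.19 and -2.20 in vehicle and at -2.50, -2.19, -2.38, -2.42 and -2.54 on day 6. Day 6 array 2 lay among the vehicle kidneys and the other 4 lay below them. The difference of -0.20 ± 0.10 log2 had an adjusted p of 0.121 in limma, with an interval from -0.40 to 0.0003. Its probes differed from each other more than those of the other members did, at -0.10 and -0.27.

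miR-181c-5p, the cluster partner of miR-181d-5p, was at -2.11, -1.86, -1.77, -1.86 and -1.93 in vehicle and at -2.11, -1.69, -2.01, -2.001 and -1.93 on day 6. These groups overlapped almost completely. The difference was -0.04 ± 0.12 log2 (adjusted p = 0.818 in limma), and its interval, -0.29 to 0.21, includes a fall as large as that of miR-181a-5p.

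How the arrays are put on a common scale decided whether the falls at day 6 were seen. Of the day 6 arrays 4 were brighter than every vehicle array at the 75th percentile, at 499 to 535 intensity units against 312 to 452, and array 2 was dimmer than all of them at 309. With no scaling the median of all tested miRNAs rose by 0.26 log2 from vehicle to day 6. On that unscaled signal miR-181b-5p differed by -0.07 and miR-181a-5p by 0.12, with adjusted p-values of 0.743 and 0.592 in limma. Scaled to the array's spike-in RNAs, against a median shift of 0.14, they differed by -0.18 and 0.01 (adjusted p = 0.546 and 0.978). With no scaling miR-181c-5p differed by 0.33 and miR-181d-5p by 0.17. No scaling, spike-in scaling and 75th percentile scaling each shift all 4 members of an array alike. The order of the members, with miR-181b-5p lowest and miR-181c-5p highest, is therefore the same in each by construction. The falls are thus relative to the other miRNAs on the arrays. Of the 4 members, miR-181b-5p alone kept its direction in all 28 alternatives run for this comparison. Several of these, such as a higher floor or the replicate number as a block, left the difference unchanged, and 10 each left out 1 array. The count of 28 is therefore not one of independent checks. Median scaling gave -0.40 for miR-181b-5p (adjusted p = 0.0804) and -0.20 for miR-181a-5p (0.303), and quantile normalization gave -0.44 (0.0210) and -0.23 (0.0603). With normexp background correction the fall of miR-181b-5p shrank to -0.26 and did not pass (adjusted p = 0.198), while miR-181a-5p was at -0.21 and passed (0.0476). On the software's total signal they were at -0.22 (0.238) and -0.03 (0.912).

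**Figure D2:**
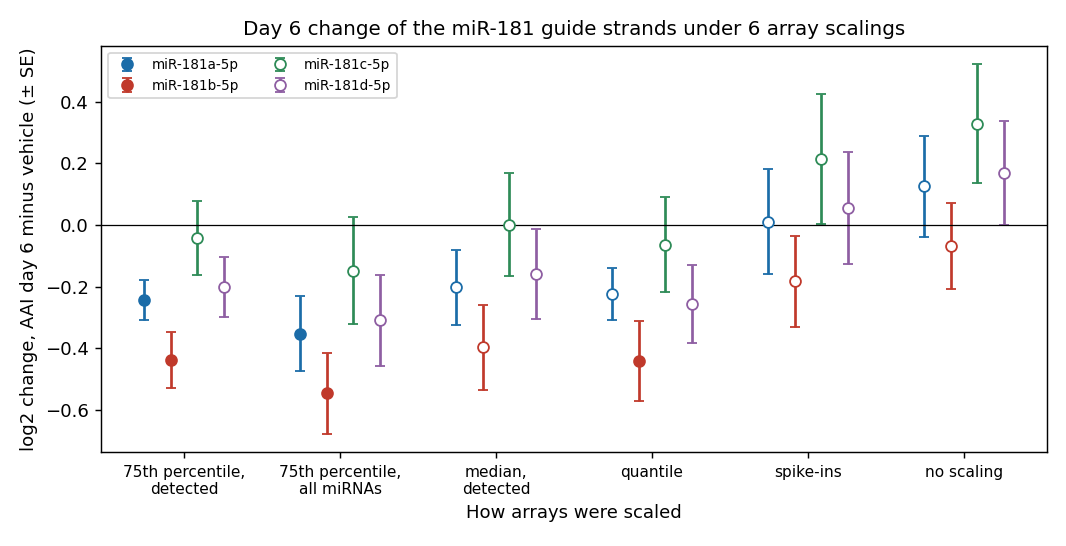
Day 6 minus vehicle log2 change (± SE) of the 4 guide strands under 6 ways of scaling the arrays; filled points had an adjusted p under 0.05 in limma and open points did not. All 4 members are highest with no scaling, where miR-181b-5p, at -0.07, is the 1 member below 0.

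Slide and group could be told apart only in part, since no slide held both vehicle and day 6. With slide as a random block, the day 6 differences were -0.50 for miR-181b-5p (adjusted p = 0.0155 in limma) and -0.31 for miR-181a-5p (0.0279). As a fixed block, which links vehicle to day 6 through slide 2 and its 1 vehicle and 2 day 4 arrays, all members were lower still. That fit gave -0.61 for miR-181b-5p (0.0322), -0.42 for miR-181a-5p (0.0302), -0.53 for miR-181d-5p (0.0394) and -0.45 for miR-181c-5p (0.131). It rests on day 4 array 2: without that array miR-181b-5p was at -0.39 (0.194), miR-181a-5p at -0.31 (0.158) and miR-181d-5p at -0.33 (0.233).

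Within slide 1, the 5 day 6 arrays could be set against 3 day 4 arrays. The day 6 mean was lower for every member, by 0.32 ± 0.11 log2 (SE) for miR-181b-5p, 0.26 ± 0.09 for miR-181a-5p, 0.25 ± 0.10 for miR-181d-5p and 0.21 ± 0.11 for miR-181c-5p. None passed within the slide (adjusted p between 0.202 and 0.314 in limma). Over all arrays the day 6 minus day 4 differences were -0.27 for miR-181b-5p, -0.20 for miR-181a-5p, -0.12 for miR-181d-5p and -0.03 for miR-181c-5p. Of the 4 members 0 passed, against 0.763% of all tested miRNAs, and miR-181a-5p and miR-181b-5p had unadjusted p-values of 0.00679 and 0.00838. Without day 4 array 2 both passed, at -0.25 (adjusted p = 0.0313 in limma) and -0.34 (0.0313), where 2.29% of tested miRNAs did.

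Before day 6 no member passed the test against vehicle. On day 2, 0 of 4 passed, where 1.53% of tested miRNAs did, and 0 members against 29 miRNAs had an unadjusted p under 0.05 in limma. miR-181a-5p was at 0.78, 0.93, 0.84, 0.75 and 0.85 log2, from among the vehicle kidneys to above them. Its difference from vehicle was 0.08 ± 0.07 log2. miR-181d-5p was at -2.16, -1.98, -2.01, -2.09 and -1.98, with 4 kidneys above every vehicle kidney and 1 among them. Its difference was 0.16 ± 0.10 (adjusted p = 0.588 in limma); 1 of its 2 probes was higher in all 5 day 2 kidneys, by 0.24, and the other overlapped at 0.12. miR-181c-5p ranged from -1.95 to -1.64 with a difference of 0.15 ± 0.12. miR-181b-5p ranged from -1.92 to -1.71 with a difference of -0.08 ± 0.09. Within slide 2, against its 1 vehicle array, the day 2 mean differed by 0.06 for miR-181a-5p, -0.12 for miR-181b-5p, 0.17 for miR-181c-5p and 0.16 for miR-181d-5p. With no scaling or spike-in scaling the miR-181b-5p difference turned positive.

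On day 4, again 0 of 4 members passed, against 3.44% of tested miRNAs, and 0 members against 58 miRNAs had an unadjusted p under 0.05 in limma. miR-181b-5p was at -1.74, -2.17, -1.88, -1.76 and -1.84, and its difference from vehicle of -0.17 ± 0.09 was the largest of the 4 (adjusted p = 0.269). Its level was low in array 2 and within or just below the vehicle range in the other 4. miR-181a-5p was at 0.72, 0.51, 0.79, 0.74 and 0.75, with array 2 far below the rest. miR-181c-5p was at -1.98, -2.37, -1.62, -1.83 and -1.78, and miR-181d-5p at -2.28, -2.68, -2.13, -2.20 and -2.15, again lowest in array 2. The day 4 differences were -0.04 ± 0.07 for miR-181a-5p, -0.01 ± 0.12 for miR-181c-5p and -0.08 ± 0.10 for miR-181d-5p. Without array 2 they were 0.0041, 0.11 and 0.02, and that of miR-181b-5p was -0.10.

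From day 2 to day 6 the fall took in miR-181d-5p as well. The day 6 minus day 2 differences were -0.33 ± 0.07 log2 for miR-181a-5p (adjusted p = 0.00574 in limma), -0.36 ± 0.09 for miR-181b-5p (0.0226) and -0.36 ± 0.10 for miR-181d-5p (0.0249). For each of these 3 members all 5 day 6 kidneys were below all 5 day 2 kidneys. So 3 of 4 members passed downward, where 7.63% of tested miRNAs did, and the same 3 did not overlap, against 7.25%. For miR-181c-5p the difference was -0.19 ± 0.12 (adjusted p = 0.359). The direction held for all 4 members in all 28 alternatives, including no scaling and spike-in scaling, though no member passed in those 2 settings. Again, several of the 28 could not change the difference, and 10 each left out 1 array. Slide 2 held all day 2 arrays and slide 1 all day 6 arrays; with slide as a random block the same 3 members passed, at -0.40 (0.0201), -0.42 (0.0392) and -0.53 (0.0227). As a fixed block miR-181c-5p passed too, at -0.62 (0.0173), but without day 4 array 2 no member passed in that fit. Single arrays mattered for miR-181d-5p, which passed in 6 of 10 fits that each left out 1 array, and for miR-181b-5p, which passed in 9 of 10. Without day 6 array 5, miR-181b-5p was at -0.31 (adjusted p = 0.0592) and miR-181d-5p at -0.33 (0.0609). miR-181d-5p also missed without day 2 array 2 (0.0561), day 2 array 5 (0.0573) or day 6 array 1 (0.0524). Between day 2 and day 4, 0 members passed, as did 0% of all tested miRNAs. There miR-181d-5p, at -0.25 (adjusted p = 0.609 in limma), was the 1 member among the 20 miRNAs with an unadjusted p under 0.05.

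**Figure D3:**
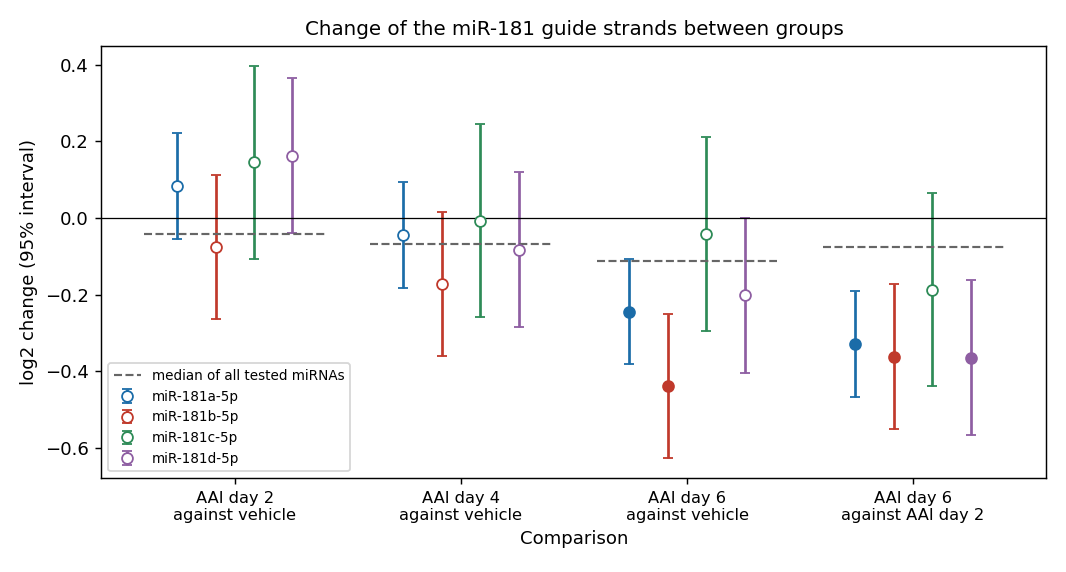
Log2 change of each guide strand in 4 comparisons with 95% intervals from limma; filled points had an adjusted p under 0.05, and dashed lines mark the median of all 262 tested miRNAs. The filled points are miR-181a-5p and miR-181b-5p for day 6 against vehicle, joined by miR-181d-5p for day 6 against day 2.

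Over the whole course, the order of the group means was day 2, vehicle, day 4, day 6 from highest to lowest for miR-181a-5p and miR-181d-5p. For miR-181b-5p it was vehicle, day 2, day 4, day 6, and for miR-181c-5p the 4 means lay within 0.19 log2, in the order day 2, vehicle, day 4, day 6. No 2 neighbours in these orders differed past the threshold. An F test over the 4 groups passed for miR-181a-5p and miR-181b-5p (adjusted p = 0.0103 for each in limma), where 17.9% of tested miRNAs passed. It gave 0.0519 for miR-181d-5p and 0.625 for miR-181c-5p.

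The ratio of 2 members on the same array does not change when an array is scaled by a single factor, unlike under quantile normalization or another background correction. miR-181c-5p over miR-181b-5p was at -0.45, -0.27, 0.07, -0.10 and -0.27 log2 in vehicle and at 0.07, 0.30, 0.20, -0.01 and 0.42 on day 6. The day 6 kidneys were mostly above the vehicle kidneys but overlapped them in 1 vehicle and 2 day 6 arrays. The shift was 0.40 ± 0.12 log2 (SE), with p = 0.0238 in a two-sided exact permutation test and 0.0952 after adjustment over the 18 pairs and days tested. On day 6, miR-181d-5p over miR-181b-5p shifted by 0.24 and miR-181c-5p over miR-181a-5p by 0.20. miR-181b-5p over miR-181a-5p, partners in 2 clusters, shifted by -0.19, and miR-181d-5p over miR-181c-5p, partners in the third, by -0.16. Each of these 4 ratios also had an adjusted p of 0.0952 in the exact permutation test. miR-181d-5p over miR-181a-5p shifted by 0.04 (p = 0.405 before adjustment, same test). On day 2 the miR-181d-5p over miR-181b-5p ratio had shifted by 0.24 as well (adjusted p = 0.0952 in the exact permutation test). On every day 0 of 6 pairs passed after adjustment and the groups overlapped for all pairs. The smallest p that 5 against 5 arrays allow is 0.00794 before adjustment. A single pair at that p could not pass after adjustment over the 18 pairs and days. The count of 0 therefore does not show that the members changed alike. The sizes of the shifts depended on the background correction. With normexp the day 6 shifts shrank to 0.19 for miR-181c-5p over miR-181b-5p, 0.11 for miR-181d-5p over miR-181b-5p, -0.04 for miR-181b-5p over miR-181a-5p and -0.08 for miR-181d-5p over miR-181c-5p. On day 2, normexp turned miR-181c-5p over miR-181a-5p from 0.06 to -0.09 and miR-181d-5p over miR-181a-5p from 0.08 to -0.11. Quantile normalization kept the day 6 shift of miR-181c-5p over miR-181b-5p at 0.38 and turned that of miR-181d-5p over miR-181a-5p to -0.03.

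**Figure D4:**
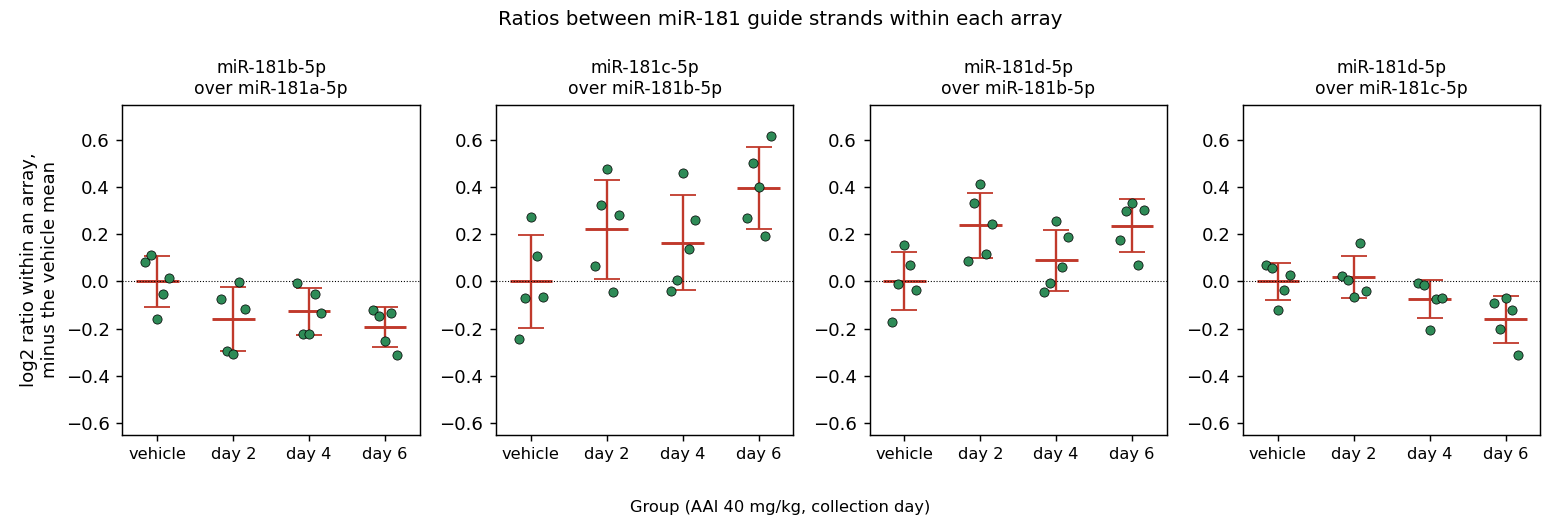
Log2 ratio of 2 guide strands on the same array, minus its vehicle mean, for 4 of the 6 pairs, with bars for the group mean and SD of 5 arrays. miR-181c-5p over miR-181b-5p is highest on day 6, at 0.40 above vehicle, with both groups overlapping.

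Across all arrays, group differences included, the closest pair was miR-181a-5p and miR-181d-5p, which come from different chromosomes. Over the 20 arrays, which share the scaling and the groups, their levels correlated at r = 0.89, and each was the other's closest match among all 261 other tested miRNAs. The cluster partners miR-181c-5p and miR-181d-5p correlated at 0.84 and miR-181a-5p and miR-181b-5p at 0.81. The weakest pair was miR-181b-5p and miR-181c-5p, at 0.33, or 0.17 without day 4 array 2. With group means removed, the closest pair was instead miR-181c-5p and miR-181d-5p, at r = 0.90, against 0.87 for miR-181a-5p and miR-181d-5p. Leaving out day 4 array 2 gave 0.80 and 0.76. It also took the within-group r of miR-181a-5p and miR-181b-5p from 0.59 to 0.31, and of miR-181b-5p and miR-181c-5p from 0.30 to -0.19. These are descriptions with no test.

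Outside the family, each member had its own closest miRNAs by Pearson correlation over the 20 arrays. All these correlations include day 4 array 2, and how far they rest on it was not examined. miR-181b-5p was closest to miR-342-3p (r = 0.92) and to miR-146a-5p (0.91), a feedback regulator of NF-kappaB signalling; both are leukocyte markers. These 2 fell further than miR-181b-5p on day 6, by 0.65 and 0.72 log2 (adjusted p = 0.000585 and 1.6e-05 in limma). The third was miR-361-5p (0.86). miR-181a-5p was closest to the erythrocyte miR-451-5p (0.84), then to miR-196a-5p and miR-125a-5p (0.82 each). With group means removed the order turned, with r = 0.45 for miR-451-5p, 0.74 for miR-196a-5p and 0.74 for miR-125a-5p. The within-group r was 0.79 for miR-181b-5p with miR-342-3p, 0.81 for miR-181b-5p with miR-146a-5p and 0.95 for miR-181c-5p with miR-152-3p. miR-181c-5p followed miR-152-3p at r = 0.95, which differed by -0.09 log2 on day 6 without passing the test, then miR-199a-3p (0.83) and miR-150-5p (0.82). miR-150-5p is a leukocyte marker too, and differed by 0.01 log2 on day 6 (adjusted p = 0.977 in limma). miR-181d-5p shared miR-152-3p (0.84) and miR-199a-3p (0.80) with its cluster partner and miR-196a-5p (0.77) with miR-181a-5p.

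Some cell type markers also fell on day 6, when 18.7% of the 262 tested miRNAs passed downward and 26% passed in either direction. Among 6 leukocyte miRNAs tested, of 7 listed, miR-342-3p and miR-146a-5p fell and the other 4 did not pass, with a list median of -0.63 log2 (-0.26 with no scaling). Their summed level, relative to the 75th percentile, ran from 4.02 to 4.23 in vehicle and from 2.69 to 3.53 on day 6. Of those 4, miR-142-3p was at -0.69, miR-142-5p at -0.60, miR-223-3p at -0.17 and miR-150-5p at 0.01. Of 5 kidney tubule miRNAs 3 fell, miR-192-5p, miR-194-5p and miR-204-5p (list median -0.42; summed level 26.5 to 27.5 in vehicle and 21.2 to 25.4 on day 6). The 1 tested erythrocyte miRNA of 3 on the array, miR-451-5p, fell by 2.73 log2; the list's summed level ran from 0.41 to 1.35 in vehicle and from 0.05 to 0.20 on day 6, and miR-144-5p was detected on 0 arrays. Neither of 2 endothelial miRNAs passed (median -0.17; summed level 8.94 to 9.15 and 6.98 to 8.78), and of 5 stromal and smooth muscle miRNAs 1 did, miR-214-3p, downward (median -0.16; 8.36 to 9.61 and 7.27 to 9.03). With no scaling the day 6 list median was -0.05 for kidney tubule, 0.20 for endothelial and 0.21 for stromal and smooth muscle miRNAs. The erythrocyte miR-451-5p was at -2.36. The part of cell type makeup in the miR-181 values was not tested.

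By summed probe signal, the opposite (3p) strands of the hairpins were near or below background. Of 6 such entries, miR-181a-1-3p was detected, on 15 of 20 arrays, and the other 5 were detected on 0. Its summed probe signal was 9.05 to 18.9 intensity units, well under that of any guide strand, though probes differ in affinity. The software's total signal for it ran from 2.05 to 374 units, while guide totals were 0.657 to 0.674 of their summed probe signal. Its level beside the guide strands therefore depends on the measure. On day 6 it differed from vehicle by -0.22 ± 0.14 log2 (adjusted p = 0.254 in limma). Since it is made only at the chromosome 13 copy, it is the 1 detected entry that could tell the miR-181a copies apart. On its low summed probe signal no difference passed the test. miR-181a-2-3p, from the chromosome 3 copy, was among those detected on 0 arrays.

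None of the nearest other miRNAs on the genome passed the test. Those of the miR-23a, miR-27a and miR-24-2 cluster lie on the opposite strand of chromosome 19, at chr19:40859481-40859798, 28536 to 29003 bases from miR-181c-5p and miR-181d-5p. On day 6, miR-24-3p differed by -0.16 log2, miR-24-2-5p by 0.11, miR-27a-3p by -0.05 and miR-23a-3p by -0.04. Of these 4 tested neighbours 0 passed on any day (lowest adjusted p on day 6 = 0.146 in limma). miR-27a-5p, and miR-3570, which lies antisense to miR-181a-1-3p, were detected on 0 arrays. miR-709, which RefSeq places at chr19:40977573-40977591, also within 100 kb, was matched to no entry and is not analysed here.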

How the data were processed

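Intensities were deposited as scanner text, 1 file per array, written by Agilent Feature Extraction 10.7.1.1, per the file headers. The authors' deposited series table of log2 values served as an alternative; how it was made is not given in the sources used here. Deposited flags marked detected miRNAs, outlier spots (373 to 559 of 14380 per array, left out) and saturated spots (0).

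Spots were averaged per probe, probe means summed per miRNA, divided by the array's 75th percentile over the 231 miRNAs detected on all 20 arrays, floored at 0.0064 and log2-transformed. Arrays were grouped by their labels. limma 3.58.1 (R 4.3.3, lmFit, eBayes, group means, all 20 arrays) tested 262 miRNAs with Benjamini-Hochberg adjustment and a threshold of 0.05. The code was tested on simulated data for day 6 against vehicle. It recovered 4 of 20 changes of -0.25 log2, 13 of 20 of -0.5 and 16 of 20 of 1. Small changes can therefore miss the threshold. Ratios between members were tested by exact permutation (252 splits).

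The members and lists were chosen with earlier results of these data known. Named miRNAs were all members, their 3p strands, miRNAs within 100 kb, the 3 miRNAs best correlated with each member, and the cell type lists. The files carry no positions, so the 100 kb rule used RefSeq GRCr8; 641 of 719 names matched. The number of arrays limits precision. Same-numbered arrays had weak mean correlations (-0.22 to 0.20), with single ones from -0.62 to 0.66. The main fit used no pairing by number. Alternatives covered background, scaling, probe summary, floor, slide, replicate number, the deposited table and each array left out.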

Additional observations from a re-analysis of the deposited data

Results flagged for a closer look

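Day 4 array 2 lay far from the other 4 day 4 arrays for 2 members. miR-181a-5p was at 0.51 log2 there and at 0.72 to 0.79 on the others, a gap of 0.75 of the group's range. miR-181d-5p was at -2.68 there and at -2.28 to -2.13 on the others, a gap of 0.72 of the range. Each of the 16 combinations of member and group was examined, and chance singles out about 1 such group in 20. The same array had 328 miRNAs detected, the most of all.

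The AAI kidneys of day 6 and of day 2 differed for 3 members, as tested by the day 6 minus day 2 contrast in limma. The vehicle group drops out of this contrast, and day 2 had no vehicle kidneys of its own day. Collection day alone and time since AAI therefore cannot be told apart here. The difference was -0.33 log2 for miR-181a-5p (adjusted p = 0.00574), -0.36 for miR-181b-5p (0.0226) and -0.36 for miR-181d-5p (0.0249). Day 2 lay wholly on slide 2 and day 6 wholly on slide 1, so slide and day cannot be told apart within any slide for this contrast.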

How the results depend on the processing

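Scaling, background and slide limit these results, and 5 arrays a group limit their precision. For day 6 against vehicle, 2 members passed; normexp background left miR-181a-5p, quantile normalization left miR-181b-5p (1 member each), and median scaling, no scaling, spike-in scaling, the software's total signal or slide as a fixed block without day 4 array 2 left 0, while the fixed block alone gave 3. For day 6 against day 2, 3 members passed; normexp, quantile normalization or the deposited table left 1, and median scaling, no scaling, spike-ins, total signal or the fixed block without day 4 array 2 left 0. Leaving out 1 array at a time gave 1 to 3. For day 4 against day 2, 0 passed and the fixed block gave 1; for day 6 against day 4, 0 passed and leaving out 1 array gave 0 to 2. The F test passed 2 members; normexp, the 75th percentile over all miRNAs or slide as a random block left 1, and median scaling, quantile normalization, no scaling, spike-ins, total signal, the deposited table or the fixed block without day 4 array 2 left 0. The count of unequal pairs was 0 in every setting. With all arrays, the permutation test could reach the threshold only if several pairs had the smallest p together. The test paired by replicate number could not reach it, since the smallest p that 5 pairs allow in its exact sign-flip test is 0.0625.

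Direction turned in these cases, with causes not tested. With no scaling, the log2 difference was 0.22 for miR-181b-5p on day 2, 0.32, 0.19, 0.35 and 0.28 for miR-181a-5p to miR-181d-5p on day 4, and 0.12, 0.33 and 0.17 for miR-181a-5p, miR-181c-5p and miR-181d-5p on day 6. With spike-in scaling, in the same order, it was 0.18, then 0.14, 0.0086, 0.17 and 0.10, then 0.0104, 0.21 and 0.0535. With total signal it was 0.0089 for miR-181b-5p on day 2, 0.0473, 0.0845 and 0.0095 for miR-181a-5p, miR-181c-5p and miR-181d-5p on day 4, and 0.18 and 0.0151 for miR-181c-5p and miR-181d-5p on day 6. Median scaling gave 0.0001 for miR-181c-5p on day 6, and normexp -0.017 for miR-181d-5p on day 2. Leaving out 1 array gave day 4 differences of -0.0669 to 0.0041 for miR-181a-5p, -0.0802 to 0.11 for miR-181c-5p and -0.12 to 0.0153 for miR-181d-5p.

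At day 6 against vehicle, leaving out any 1 of the 10 arrays kept miR-181b-5p at -0.48 to -0.39 and miR-181a-5p at -0.27 to -0.22, both past the threshold in 10 of 10 fits. With the replicate number as a block, counts of members that passed did not change, and the adjusted p-values at day 6 in limma were 0.00387 for miR-181b-5p and 0.0223 for miR-181a-5p.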

Other observations

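The software's own total signal treated one miR-181 strand unlike the rest. For the 4 guide strands it was a near constant share of the summed probe signal, 0.657 to 0.674 on all 20 arrays. For miR-181a-1-3p it was 2.05 to 374 units while the summed probe signal was 9.05 to 18.9, so the ratio ran from 0.172 to 33.0. Among the neighbours on chromosome 19, miR-24-2-5p had a total of 2097 to 3668 units and a summed probe signal of 31.9 to 86.0. The total signal of these 2 strands entered only the total-signal alternative, which was fitted to all tested miRNAs.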
